A study of Homo sapiens with 4 samples.

Results

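The 10 genes described here encode proteins that take part in making microRNAs (miRNAs) and proteins that carry out silencing by them: *DROSHA*, *XPO5* and *DICER1*, the Argonaute genes *AGO1*, *AGO2*, *AGO3* and *AGO4*, and the GW182 genes *TNRC6A*, *TNRC6B* and *TNRC6C*. The selection rule names the genes and uses no measured value, although earlier results of these data were known when they were chosen. Their symbols were matched to Ensembl gene identifiers, and all 10 were among the 18252 genes tested, of 63677 in the count table. The study transfected LX-2, a human cell line derived from hepatic stellate cells, with an miR-6133-5p mimic or with a negative control mimic (miControl), each at 20 nM. After 24 h the medium of all cells was changed to one with 5 ng/mL of rhTGF-β1, a cytokine that activates stellate cells, and RNA was collected 24 h later. There were 2 libraries per group, called replicates 1 and 2, and every comparison is between these groups, since no library came from cells without a mimic or without rhTGF-β1. The labels do not say that replicates were separate cultures, so the p-values measure the spread between these libraries, which may be technical.

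miRNAs begin as hairpins within longer nuclear transcripts. Drosha, with its partner DGCR8, cuts the hairpin free, exportin-5 carries it to the cytoplasm, and Dicer cuts off the loop to leave a short duplex. An Argonaute protein keeps one strand of the duplex and pairs it with target mRNAs, and a GW182 protein bound to Argonaute recruits the enzymes that remove the poly(A) tail and the cap. In stellate cells, as in other cells, these proteins serve miRNAs in general rather than a single miRNA. A transfected mimic is designed as a short duplex that needs neither Drosha nor Dicer, and it is loaded into the same Argonaute proteins as the miRNAs of the cell.

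The hairpin is printed to show the natural precursor from which the cell would make this miRNA. The hairpin of miR-6133 lies on the plus strand at chr7:133290881-133290988 (GRCh38.p14, RefSeq), within the span of the gene *EXOC4*, and is 108 bases long.

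MIR6133 hairpin: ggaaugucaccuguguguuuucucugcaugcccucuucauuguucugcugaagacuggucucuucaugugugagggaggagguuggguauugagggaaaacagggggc

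The libraries were made from poly(A)+ RNA, so neither the hairpin nor the mimic was measured, and the mimic label of a library could not be checked against the mimic itself. Matches between the mimic and the transcripts of the 10 genes were not analysed here.

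Total counts were 51862006 and 57903388 in the miControl libraries and 61747010 and 93811213 in the miR-6133-5p libraries. Levels are given as CPM, read counts set on a common scale by dividing by the library total, with totals scaled by the TMM factors of edgeR, so that 3 counts correspond to between 0.0303 and 0.061 CPM. The fewest counts on any of the 10 genes in any library were 956, for *TNRC6C*, so all 10 were far above that limit. Mesenchymal markers were present, with 9 of 12 stellate and mesenchymal markers at 1 CPM or more in a library, but the stellate markers *DES* and *LRAT* were under 0.1 CPM in every library. The summed level of those 12 markers was 5603 and 5083 CPM with miControl and 3367 and 3030 CPM with miR-6133-5p. Most of that difference was *COL1A1* (3112 and 2723 against 995 and 1133 CPM). Also lower without overlap were *ACTA2* (25.9% of its miControl level), *COL1A2* (46.4%), *TAGLN* (47.5%), *LHX2* (58.6%) and *COL3A1* (73.5%). Of the 10 of these markers tested, 6 were thus below, against 31.3% of all genes. The groups overlapped for *VIM*, *PDGFRB*, *RELN* and *HAND2*. Hepatocyte markers summed to between 2.05 and 2.81 CPM, with *ALB*, *APOA1*, *APOB*, *TTR* and *HNF4A* each under 0.1 CPM. Bile duct markers summed to 83.9 and 85.3 CPM with miControl and to 39.9 and 36.8 CPM with miR-6133-5p. Most of it was *SOX9*, at 80.2 and 80.8 CPM with miControl and 33.1 and 29.5 CPM with miR-6133-5p. *KRT7* was higher with miR-6133-5p (6.61 and 7.08 CPM, against 3.62 and 4.44 CPM with miControl), and *EPCAM* was under 0.1 CPM. Endothelial markers summed to between 2.46 and 2.99 CPM, and leukocyte and macrophage markers to between 9.25 and 11.3 CPM. Most of the latter sum was *CSF1R*, at 7.02 to 9.44 CPM. *CD14* was at 0.955 to 1.97 CPM, and *PTPRC*, *CD68* and *LYZ* were each at 0.232 CPM or less. In such bulk RNA, fewer cells of a type and less RNA per cell cannot be told apart.

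Of the 10 genes, *DROSHA* fell to 41.8% of its miControl level in the miR-6133-5p libraries, and it was the 1 gene that passed edgeR's quasi-likelihood test at the study's thresholds, an adjusted p-value under 0.01 and a log2 fold change beyond 0.8. That is 10% of the 10 genes, against 8.44% of all 18252 genes tested, so the count says nothing particular about the group. At an adjusted p-value under 0.01 with any fold, it was again 1 of the 10, against 18.8% of all genes. At an adjusted p-value under 0.05, 5 of the 10 passed, against 30.2% of all genes: *DROSHA* and *XPO5* were lower (16.1% of all genes were lower), and *TNRC6A*, *TNRC6B* and *TNRC6C* were higher (14.1% of all genes were higher). The miR-6133-5p libraries did not overlap the miControl libraries for 9 of the 10, 6 of them below and 3 above, against 64.4% of all genes, 31.3% below and 33.2% above. The median log2 fold change of the 10 was -0.24, against 0.03 over all genes tested.

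**Figure D1:**
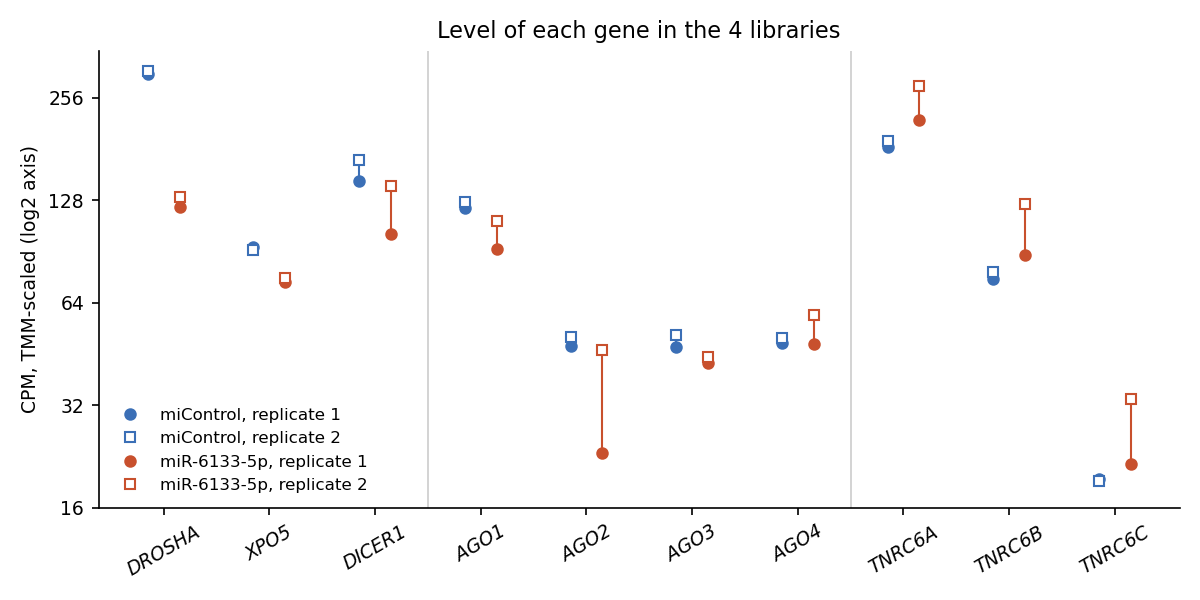
Level of each gene in the 4 libraries, in CPM with TMM-scaled totals on a log2 axis; filled circles are replicate 1, open squares replicate 2, blue is miControl and red miR-6133-5p, and a line joins the replicates of a group. The red points of *DROSHA* (122 and 131 CPM) lie far below its blue points (300 and 306 CPM), whereas the red points of *AGO2* (23.2 and 46.5 CPM) lie far apart.

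*DROSHA*, the ribonuclease that cuts primary transcripts in the nucleus, lies on the minus strand of chromosome 5 (positions 31400601 to 31532303, GRCh37), with 36 exons in its canonical transcript. Its level was 299.6 and 306.1 CPM in the miControl libraries and 122.4 and 130.9 CPM in the miR-6133-5p libraries. Both miR-6133-5p libraries were thus far below both miControl libraries, and replicates lay close together in each group (means of 303 ± 4.61 and 127 ± 6.0 CPM, SD, n = 2). The log2 fold change was -1.26 ± 0.10 (SE; 95% interval -1.48 to -1.03), with an edgeR adjusted p of 1.47e-06. In each of 13 alternative fits it kept an adjusted p under 0.01 and a fall of more than 0.8 on the log2 scale. Leaving out 1 library at a time gave log2 fold changes of -1.32 to -1.23, and the test against a fold of 0.8 itself (edgeR's glmTreat) gave an adjusted p of 0.00305.

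No such difference was detected for the RNA-binding partner of Drosha. *DGCR8*, named here after its values were seen, stood at 51.7 and 46.4 CPM with miControl and at 47.1 and 57 CPM with miR-6133-5p, so its groups overlapped (log2 fold change 0.09, 95% interval -0.17 to 0.34; edgeR adjusted p = 0.637). *DROSHA* had 5.79 and 6.6 counts for each count of *DGCR8* in the miControl libraries and 2.6 and 2.3 in the miR-6133-5p libraries. This ratio does not depend on how the library totals were scaled. It is a ratio of counts and not of molecules, and it was chosen after the values were seen and not tested.

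*XPO5* encodes exportin-5, which carries the hairpin out of the nucleus, and lies on the minus strand of chromosome 6 (positions 43490072 to 43543775). It stood at 93.1 and 91.2 CPM with miControl and at 73.4 and 75.6 CPM with miR-6133-5p. Each miR-6133-5p library was below each miControl library, and the replicates differed little. The difference, to 80.9% of miControl, did not pass at 0.01 (log2 fold change -0.31, 95% interval -0.52 to -0.09; edgeR adjusted p = 0.033), nor did it in any of 13 alternative fits (adjusted p from 0.0112 to 0.295). With library totals alone as the scaling, the log2 fold change was -0.14, but that scaling also moved the median of all genes from 0.03 to 0.19. Of its exon bases, 4.10% lie under *POLR1C* on the opposite strand.

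*DICER1* encodes the cytoplasmic ribonuclease that removes the loop, and lies on the minus strand of chromosome 14 (positions 95552565 to 95624347). Its level was 145.3 and 168 CPM with miControl and 101.6 and 140.8 CPM with miR-6133-5p. The groups did not overlap, but replicate 2 was the higher library in both, and the higher miR-6133-5p library came close to the lower miControl library. The log2 fold change was -0.37 (95% interval -0.68 to -0.06; edgeR adjusted p = 0.0668). Its size depended on which miR-6133-5p library was used: it was -0.17 without replicate 1 (adjusted p = 0.229) and -0.64 without replicate 2 (adjusted p = 8.53e-06). *DROSHA* had 2.06 and 1.82 counts per count of *DICER1* with miControl and 1.21 and 0.93 with miR-6133-5p, a ratio chosen after its values were seen and not tested.

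The Argonaute genes encode the proteins that hold the guide strand. Of the 4 proteins, *AGO2* is the one best known for cutting a fully paired target. *AGO4*, *AGO1* and *AGO3* lie in this order on the plus strand of chromosome 1 (positions 36273617 to 36323491, 36335409 to 36396133 and 36396319 to 36538101), with 11917 bases between *AGO4* and *AGO1* and 185 bases between *AGO1* and *AGO3*. *AGO2* lies on the minus strand of chromosome 8 (positions 141530255 to 141645732). The canonical transcripts are alike in coding length, from 2571 to 2583 bases, but their 3′-untranslated regions run from 4288 bases in *AGO4* to 16758 bases in *AGO3*. No stretch of 100 bases in the annotated transcripts of any of the 10 genes occurs in another of the 10.

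None of the 4 Argonaute genes passed at an adjusted p under 0.01 or under 0.05, and their median log2 fold change was -0.24. *AGO1* stood at 121.6 and 126.2 CPM with miControl and at 92.1 and 111.5 CPM with miR-6133-5p. Its groups did not overlap (log2 fold change -0.28, 95% interval -0.53 to -0.04; edgeR adjusted p = 0.0784). Without miR-6133-5p replicate 2 the log2 fold change was -0.44 (adjusted p = 0.000851), and without replicate 1 it was -0.17 (adjusted p = 0.225).

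*AGO2* had the widest gap between replicates. It stood at 47.9 and 50.9 CPM with miControl and at 23.2 and 46.5 CPM with miR-6133-5p, from 2354, 2770, 1514 and 4612 counts. Replicate 1 of miR-6133-5p was thus far below the control libraries and replicate 2 just below them. The log2 fold change was -0.50 ± 0.22 (SE; 95% interval -0.98 to -0.02; edgeR adjusted p = 0.109). It was -1.11 without miR-6133-5p replicate 2, with an adjusted p of 4.49e-09, and -0.10 without replicate 1, with an adjusted p of 0.547. The miR-6133-5p replicates differed by 2.01-fold, and 13 of 9647 protein-coding genes with at least 5 CPM in every library, 0.135%, had replicate 2 above replicate 1 by as much.

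*AGO3* stood at 47.5 and 51.6 CPM with miControl and at 42.6 and 44.3 CPM with miR-6133-5p. The groups did not overlap (log2 fold change -0.19, 95% interval -0.41 to 0.03; edgeR adjusted p = 0.193). *AGO4* was the 1 gene of the 10 whose groups overlapped, at 48.6 and 50.6 CPM with miControl and 48.5 and 59.1 CPM with miR-6133-5p. The log2 fold change was 0.12 (95% interval -0.13 to 0.37; edgeR adjusted p = 0.49). It was 0.23 without miR-6133-5p replicate 1 and turned to -0.05 without replicate 2.

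The GW182 genes encode large scaffold proteins that bind Argonaute and call in the deadenylases. The 3 genes lie on different chromosomes, all on the plus strand: *TNRC6A* on chromosome 16 (positions 24621530 to 24838953), *TNRC6B* on chromosome 22 (40440821 to 40731812) and *TNRC6C* on chromosome 17 (75954785 to 76104903). All 3 were higher in both miR-6133-5p libraries than in both miControl libraries, as were 33.2% of all genes tested. None of the 3 passed at an adjusted p under 0.01. *TNRC6A* stood at 183.9 and 191.6 CPM with miControl and at 219.7 and 276.2 CPM with miR-6133-5p. The log2 fold change was 0.40, or 1.32-fold (95% interval 0.14 to 0.66; edgeR adjusted p = 0.0223).

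*TNRC6B* stood at 75.4 and 78.6 CPM with miControl and at 88.4 and 124.8 CPM with miR-6133-5p, so replicate 2 was the farther from the controls. The log2 fold change was 0.47, or 1.39-fold (95% interval 0.17 to 0.77; edgeR adjusted p = 0.0222). *TNRC6C*, the lowest of the 3, stood at 19.5 and 19.1 CPM with miControl and at 21.5 and 33.5 CPM with miR-6133-5p. Here replicate 1 lay just above the controls and replicate 2 well above them, and the log2 fold change was 0.52, or 1.43-fold (95% interval 0.15 to 0.88; edgeR adjusted p = 0.0325). Of its exon bases, 12.3% lie under *TMC6* on the opposite strand, which was at 0.57 to 1.62 CPM in the 4 libraries.

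The size of the GW182 differences rested on miR-6133-5p replicate 2. Without it, the log2 fold changes were 0.21 for *TNRC6A*, 0.18 for *TNRC6B* and 0.14 for *TNRC6C* (edgeR adjusted p = 0.0697, 0.187 and 0.427). Without replicate 1 they were 0.54, 0.68 and 0.78 (adjusted p = 1.66e-05, 3.92e-06 and 5.85e-06). Leaving out a miControl library gave 0.36 to 0.52 (adjusted p from 0.141 to 0.244). With library totals alone they were 0.57, 0.63 and 0.68 and all 3 passed at 0.01, beside a median of 0.19 over all genes. The share of all genes under 0.01 was not taken in that fit.

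**Figure D2:**
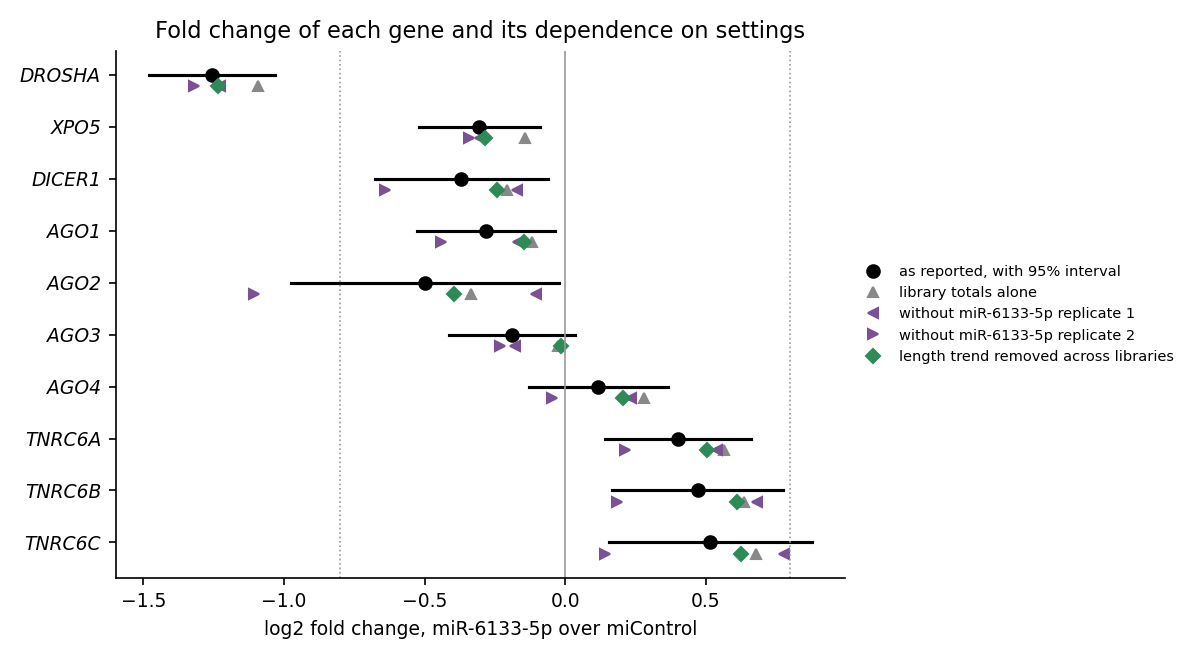
Log2 fold change of each gene, miR-6133-5p over miControl; black points and bars are the edgeR estimate with its 95% interval, grey triangles use library totals alone, purple triangles leave out 1 miR-6133-5p library, green diamonds remove the trend with transcript length, and dotted lines mark 0.8 in each direction. Every estimate of *DROSHA* lies below -1, whereas *AGO2* runs from -1.11 to -0.10 and *TNRC6C* from 0.14 to 0.78.

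Levels of different genes were compared per kilobase of exon. In the miControl libraries *DROSHA* was the highest of the 10, at 38.9 ± 0.592 CPM per kilobase (SD, n = 2), followed by *TNRC6A* at 14.5, *XPO5* at 10.9, *AGO1* at 8.82, *DICER1* at 7.07, *AGO4* at 6.68, *TNRC6B* at 3.85, *AGO2* at 3.12, *AGO3* at 2.34 and *TNRC6C* at 1.66. The libraries of neighbours in that order did not overlap, except for those of *DICER1* and *AGO4*. In the miR-6133-5p libraries *TNRC6A* came first, at 19.1 ± 3.08 CPM per kilobase, and *DROSHA* second, at 16.3 ± 0.771. *XPO5* at 8.79, *AGO1* at 7.25, *AGO4* at 7.25, *DICER1* at 5.47, *TNRC6B* at 5.33, *TNRC6C* at 2.36, *AGO2* at 2.20 and *AGO3* at 2.05 followed. There the libraries overlapped between *AGO1* and *AGO4*, *DICER1* and *TNRC6B*, *TNRC6C* and *AGO2*, and *AGO2* and *AGO3*. These levels divide by all annotated exon bases and so understate a gene that uses few of its exons. Divided by the longest transcript instead, *DICER1* ranked 4 in both groups, at 12.3 with miControl and 9.55 with miR-6133-5p. It was then above *AGO1*, at 9.03 and 7.42, and the other genes kept their order.

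Within the Argonaute family, *AGO1* made up 42.3% and 41.9% of the summed level per kilobase with miControl and 39.6% and 37.9% with miR-6133-5p. *AGO4* made up 32% and 31.8%, and then 39.4% and 38%. The share of *AGO2* was 14.8% and 15% with miControl and 8.82% and 14% with miR-6133-5p, and that of *AGO3* was 11% and 11.4% and then 12.2% and 10%. The shares of *AGO1* and *AGO2* were thus lower, and that of *AGO4* higher, in both miR-6133-5p libraries, whereas that of *AGO3* overlapped. With 2 libraries against 2, an exact permutation test cannot go below p = 0.33, so shares were not tested.

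Within the GW182 family no share stood apart between the groups. *TNRC6A* made up 72.3% and 72.6% of the summed level per kilobase with miControl and 73% and 70% with miR-6133-5p. *TNRC6B* made up 19.2% and 19.3%, and then 19% and 20.5%, and *TNRC6C* 8.52% and 8.08%, and then 7.97% and 9.46%. The groups overlapped for all 3 shares.

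The families were also set against each other. The summed Argonaute level was 20.5 and 21.4 CPM per kilobase with miControl and 16.6 and 20.9 with miR-6133-5p, and the summed GW182 level was 19.6 and 20.4 and then 23.2 and 30.4. The GW182 level was thus 0.958 and 0.949 of the Argonaute level in the miControl libraries and 1.4 and 1.45 times that level in the miR-6133-5p libraries. Both replicates gave nearly the same ratio although each sum differed between them. Which family was higher with miControl depended on the length used. Divided by the longest transcript instead of all exon bases, *TNRC6A* went from 14.5 to 22.1 CPM per kilobase with miControl and *AGO1* from 8.82 to 9.03. The GW182 sum was then above the Argonaute sum in every library. For single genes, *TNRC6A* had 1.51 and 1.52 counts per count of *AGO1* with miControl and 2.39 and 2.48 with miR-6133-5p. These ratios were chosen after the values were seen and were not tested.

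**Figure D3:**
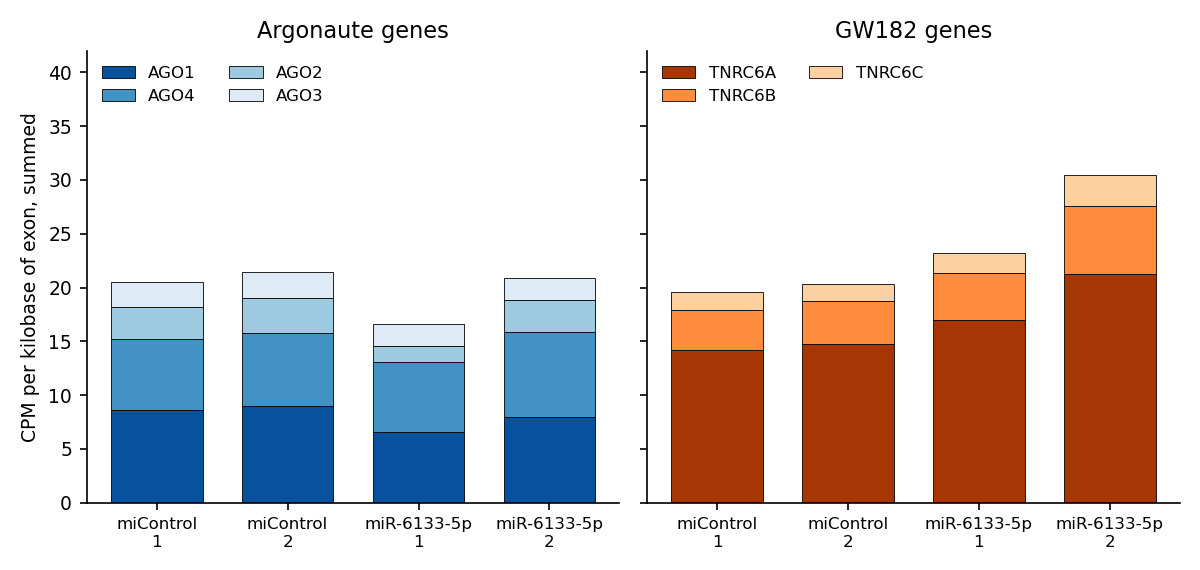
Summed level of the Argonaute genes (left) and of the GW182 genes (right) in each library, in CPM per kilobase of exon, with 1 bar per library split by gene. The Argonaute bars run from 16.6 to 21.4 and the GW182 bars from 19.6 to 30.4. With this length, all exon bases, the GW182 bar is the taller of the pair only in the miR-6133-5p libraries. With the longest transcript it would be the taller in every library.

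The miR-6133-5p replicates differed along transcript length, and the 10 genes have long transcripts, with a longest annotated form of 5.32 kb (*XPO5*) to 19.7 kb (*AGO3*). Over the 9647 genes, the log2 ratio of replicate 2 to replicate 1 rose with length with a Spearman's rho of 0.631 in miR-6133-5p and 0.304 in miControl. These rhos are across genes of the same libraries, and genes are not independent replicates. In miR-6133-5p the median ratio went from -0.21 for transcripts under 2 kb to 0.32 for those over 10 kb, whereas in miControl it went from -0.06 to 0.08. The ratio of the groups ran the other way, with a rho of -0.175 and medians of 0.11 under 2 kb and -0.13 over 10 kb.

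**Figure D4:**
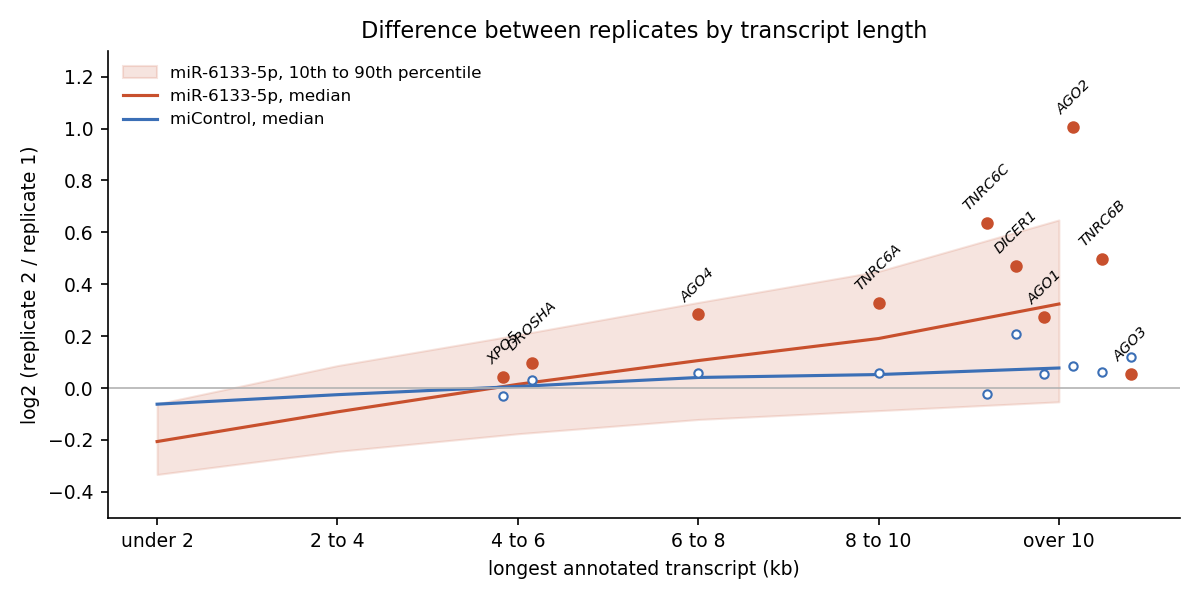
Log2 ratio of replicate 2 to replicate 1 by length of the longest annotated transcript; lines are medians over the genes of each length class, the band spans the 10th to the 90th percentile in miR-6133-5p, and filled (miR-6133-5p) and open (miControl) points are the 10 genes, spread sideways within a class for legibility. *AGO2* stands at 1.01, above the band, *AGO3* at 0.06 lies below the median of its class and *DROSHA* at 0.10 above that of its own, and the open points reach at most 0.21 (*DICER1*).

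The log2 ratios of the 10 genes in miR-6133-5p were all above 0. They were 0.64 for *TNRC6C*, 0.50 for *TNRC6B*, 0.47 for *DICER1*, 0.33 for *TNRC6A*, 0.28 for *AGO4* and 0.28 for *AGO1*, 1.01 for *AGO2*, but 0.06 for *AGO3*, the longest. *DROSHA* (0.10) and *XPO5* (0.04), the shortest, differed little between replicates. When the length trend of each library was removed, an alternative chosen after seeing the data, *DROSHA* gave -1.23 (edgeR adjusted p = 1.58e-06), *TNRC6A* 0.51 (0.000982), *TNRC6B* 0.61 (0.000236) and *TNRC6C* 0.62 (0.00402), so that all 4 passed at 0.01. With the trend removed within each group only, they gave -1.26, 0.39, 0.45 and 0.49, of which *TNRC6C* did not pass (adjusted p = 0.0156), whereas *DICER1* did, at -0.38 (adjusted p = 0.00762). *AGO2* did not pass at 0.01 in either (-0.39 and -0.55, adjusted p = 0.0988 and 0.0325). The share of all genes under 0.01 was not taken in either fit, so these counts do not show whether the genes stand apart. What the trend arises from was not tested.

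The other genes of the pathway were described from 8 lists with 92 genes, of which 82 were tested. At an adjusted p under 0.01, 10 were lower and 10 higher, 12.2% each, against 10.9% and 7.96% of all genes. With the fold threshold, 2 were lower and 2 higher, 2.44% each, against 5.54% and 2.9% of all genes. With library totals alone these counts became 0 lower and 7 higher. The median log2 fold change of the 82 genes was -0.01.

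**Figure D5:**
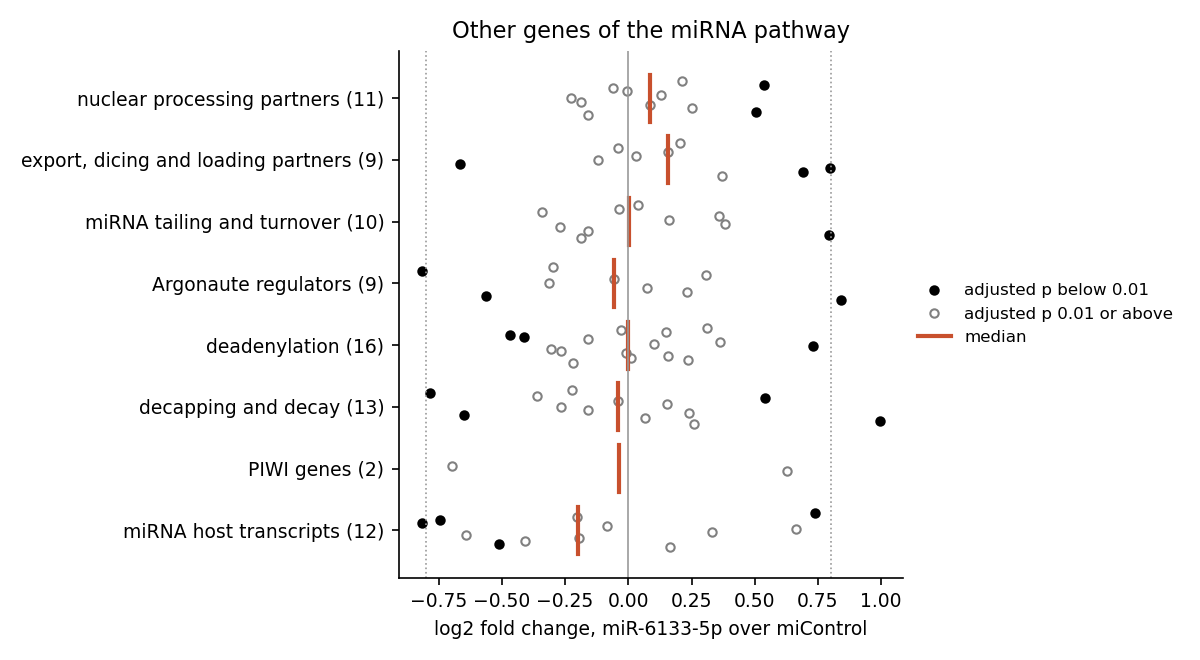
Log2 fold change, miR-6133-5p over miControl, of the tested genes of each list, whose number stands in brackets; filled points have an adjusted p under 0.01, red bars are list medians and dotted lines mark 0.8 in each direction. Points lie on both sides of 0 in each list, and the list medians run from -0.20 to 0.16.

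In each list below, genes are counted as fallen or risen at an adjusted p under 0.01. Of all genes, 10.9% were lower and 7.96% higher at that threshold, and counts in lists this short were not tested against these shares. Upstream, the 11 nuclear processing partners held 2 genes that rose and 0 that fell, with a median log2 fold change of 0.09. The smallest adjusted p there was that of *SRRT*, a cap-complex protein that helps to bring primary transcripts to Drosha, at 143.3 and 142 CPM with miControl and 200.7 and 213.1 CPM with miR-6133-5p (log2 fold change 0.54, edgeR adjusted p = 0.00136). Of 9 export, dicing and loading partners, 1 fell and 2 rose, with a median of 0.16. The fall was that of *HSP90AB1*, the constitutive HSP90 chaperone gene, from 1667 and 1635 CPM to 1055 and 1025 CPM (log2 fold change -0.67, edgeR adjusted p = 0.000213). Its stress-inducible paralog *HSP90AA1*, named after its values were seen, was at 704.9 and 890.8 CPM and then at 1416 and 1358 CPM (log2 fold change 0.80, edgeR adjusted p = 0.000243). HSP90 chaperones hold Argonaute open for loading of the duplex. *SRRT* kept its direction but not its adjusted p without miControl replicate 1 or 2 (0.0539 in both), and so did *HSP90AB1* (0.0229 and 0.0101).

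Of 12 genes for miRNA tailing and turnover, 10 were tested and 1 rose, *PARN*, a ribonuclease that trims poly(A) tails, from 26.7 and 27.6 CPM to 48.8 and 45.4 CPM (log2 fold change 0.79, edgeR adjusted p = 8.92e-05, and 0.0103 without miControl replicate 1). *LIN28A* and *LIN28B*, which block processing of let-7, had too few counts to test. Of 9 tested regulators of Argonaute, 2 fell and 1 rose, with a median of -0.05. *PPP6C*, the catalytic subunit of the phosphatase that acts on Argonaute with *ANKRD52*, fell from 75 and 82.2 CPM to 47.7 and 41.6 CPM (log2 fold change -0.82, edgeR adjusted p = 9.97e-05). *ANKRD52*, named after its values were seen, was the other that fell, from 375 and 353.6 CPM to 216.9 and 276.1 CPM (log2 fold change -0.56, edgeR adjusted p = 0.00351). *AJUBA*, a LIM-domain protein found in P-bodies, rose from 80 and 80.8 CPM to 142.5 and 145.5 CPM (log2 fold change 0.84, edgeR adjusted p = 3.67e-05).

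Downstream of the GW182 proteins, 16 genes of deadenylation held 2 that fell and 1 that rose, with a median log2 fold change of 0.00. The rise was that of *CNOT6L*, a catalytic subunit of the CCR4-NOT deadenylase, from 32.6 and 37 CPM to 53.6 and 62 CPM (log2 fold change 0.73, edgeR adjusted p = 0.000344, and 0.0294 without miControl replicate 1). Of 13 tested genes of decapping and decay, 2 fell and 2 rose. *DCP2*, the decapping enzyme, had the largest rise of the 82 genes, from 63.9 and 70.8 CPM to 132.2 and 136.2 CPM, or 1.99-fold (log2 fold change 0.99, edgeR adjusted p = 1.31e-05), and it passed both thresholds in each of 13 alternative fits but not the test against a fold of 0.8 itself (glmTreat adjusted p = 0.243). *DCP1A*, which encodes its activator, was listed at 0 in every library under the identifier matched to that symbol, which may not be the one its reads were counted under, so no level is given for it.

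The PIWI genes are relatives of the Argonaute genes that act in the germline, and 2 of 4 had enough counts to test. *PIWIL4* stood at 0.895 and 0.588 CPM with miControl and at 0.535 and 0.383 CPM with miR-6133-5p (log2 fold change -0.70, edgeR adjusted p = 0.234). Of 16 transcripts that host miRNAs, 12 were tested, 3 fell and 1 rose, with a median log2 fold change of -0.20. *MIR31HG*, the host of miR-31, fell from 7.99 and 8.24 CPM to 4.96 and 4.3 CPM (log2 fold change -0.82, edgeR adjusted p = 0.00114). Without miControl replicate 1 or 2 its adjusted p was 0.021 or 0.016, no longer under 0.01. Host transcripts are substrates of Drosha, but their poly(A)+ level does not measure the miRNAs cut from them.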

How the data were processed

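Poly(A)+ RNA of 4 LX-2 samples, 2 per group by the transfection label, was sequenced by the authors as read pairs after a stranded mRNA kit. Per the labels and the study's methods, reads were aligned to GRCh37 with STAR 2.5.3a through GeneData Profiler and counted with featureCounts (Subread 1.6.4). The annotation release and strand setting are not given in the sources used here. The authors deposited raw whole-number counts per Ensembl gene, as a matrix and per library, and both held the same values. A deposited mapping summary gave the fraction of read pairs mapped uniquely, 0.9652 to 0.9676, and there were 1.68 to 1.7 counts per such pair.

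Symbols, positions and lengths came from GENCODE v44 lifted to GRCh37, possibly another release than the counting used. Genes passed filterByExpr and were scaled by TMM, and groups were compared 2-sided with the quasi-likelihood test of edgeR 4.0.16 (R 4.3.3) with no replicate block. P-values were adjusted by Benjamini–Hochberg over 18252 genes, and the thresholds, 0.01 and 0.8, are the study's. SEs came from the F statistic, CPM carry no pseudocount, and no interval was taken from counts alone, since counting error is not the only error.

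The 10 genes and all lists were chosen with earlier results of these data known. From each list the genes called were named or, where none was, the gene with the smallest adjusted p; other names are marked as chosen after their values were seen. Alternatives were RLE, library totals alone, DESeq2 1.42.0, no filter, at least 10 counts in every library, a replicate block, thinning to the total of the smallest library, leaving out each library, an adjusted p of 0.05 and glmTreat. Removal of the length trend (lowess, span 0.3) was added after seeing the data. *MIR143HG* and *PECAM1* were not found under these symbols.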

Additional observations from a re-analysis of the deposited data

How the results depend on the processing

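*DROSHA* passed at an adjusted p under 0.01 in all alternatives run. With edgeR as described, 1 of the 10 genes had an adjusted p under 0.01, and 5 had one under 0.05. The number under 0.01 was 4 with library totals alone, 2 with DESeq2 and 6 without a filter on low counts. It was 4 with the length trend removed across libraries and 4 with it removed within groups. The number that also passed the fold was 1 to 2 with 1 library left out. With edgeR as described, 18.8% of all genes had an adjusted p under 0.01 and 30.2% under 0.05. That share was not taken for the other alternatives, so their counts do not show whether the 10 genes stand apart. With 1 library left out, the log2 fold change of *AGO4* ran from -0.0481 (without miR-6133-5p replicate 2) to 0.2348 (without replicate 1). With library totals alone it was 0.2812. Of the partner genes, 2 were called lower, but 0 with library totals alone, 0 with glmTreat, 1 with the length trend removed across libraries and 1 to 3 with 1 library left out. The 2 called higher became 7 with library totals alone, 4 without the filter, 0 with glmTreat and 2 to 4 with 1 library left out. With glmTreat set aside, *AJUBA* was called in 13 of 13 alternative fits, *PPP6C* in 10 and *MIR31HG* in 8. Over all genes, 1540 were called, 1011 lower and 529 higher. glmTreat called 406, 326 lower and 80 higher, library totals alone 709 lower and 977 higher, and with 1 library left out 1063 to 1836 were called, 293 to 587 of them higher. Divided by the longest transcript, the miControl shares of *AGO1* to *AGO4* were 41.5%, 15.5%, 11.6% and 31.4%, against 42.1%, 14.9%, 11.2% and 31.9%. The causes were not tested.

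Replicate numbers were not taken to pair the libraries, since the study's methods name no block. The differences between replicates correlated with r = 0.049 between the groups over 18252 genes, including genes with few counts. They rose with transcript length in both groups, with rhos of 0.304 (miControl) and 0.631 (miR-6133-5p) over 9647 genes. The low r therefore does not settle whether the replicate numbers pair the libraries. With a replicate block, 6 of the 10 genes had an adjusted p under 0.01 (*DICER1*, *AGO2* and the 3 GW182 genes joined *DROSHA*). The share of all genes under 0.01 in that fit was not taken, so the 6 cannot be set against it. The block moved none of the other counts by over 1.5 times. With a library left out, the lone library of its group is assumed to vary like the others. Groups of 2 allow no check for an outlying library. The 10 genes had at least 956 counts in each library.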
